A study of Mus musculus with 7 samples.

Results

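Processed pseudogenes with a high level were examined in mouse retina after knockdown of Setd1a. They were the rows of the deposited transcript tables that carry the type processed pseudogene and have a mean of at least 100 TPM over all 7 libraries. TPM is the length-adjusted share of a transcript within its library, scaled so that all transcripts of a library add up to about the same total. The rule selected 256 of the 1266 processed pseudogene rows, out of 55404 transcripts with a TPM. The members were selected on their mean TPM, so their height is a description here, and only the comparison between the groups is tested.

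The retinas came from ICR mice at embryonic day 17.5 and were kept as explants for 2 days. In the 3 control libraries the explants were electroporated with a control plasmid, and in the 4 shKmt2f libraries with one that encodes a hairpin RNA targeting Kmt2f, another name of Setd1a. A plasmid for EGFP was added in both groups, and the libraries were made from sorted EGFP-positive cells, so they describe the electroporated cells and not the whole retina. Setd1a is a methyltransferase of histone H3 lysine 4. Its full-length transcript was at 0.830 ± 0.112 TPM (SD, n = 3) in the control and at 0.385 ± 0.0451 TPM (SD, n = 4) in shKmt2f, which is 46.4% of the control (exact permutation test over 35 splits, two-sided, p = 0.0286, the smallest p these groups allow). The full-length transcript was below 1 TPM in every library, so it would not pass the filter for testing used below. The 3 other listed Setd1a transcripts were at 74.2%, 80.8% and 92.4% of the control, and none passed 0.05 in the same test (exact permutation p = 0.257, 0.886 and 0.914). Their means were 4.92, 0.441 and 2.75 TPM in the control and 3.65, 0.357 and 2.54 TPM in shKmt2f. All 12 retina markers looked for were listed, with a summed level of 1658 to 2205 TPM in the control and 2774 to 2922 TPM in shKmt2f. No erythroid marker was listed. The summed markers of lens (3 of 6 listed), microglia (1 of 5) and astrocytes (4 of 4) stayed below 2 TPM in every library. Those of the pigment epithelium (3 of 7 listed) lay between 3.80 and 7.62 TPM, and those of endothelium (3 of 5) between 62.3 and 109 TPM. The part of the retina markers' difference in the results below was not tested, and in bulk libraries fewer cells of a type and less RNA per cell cannot be told apart.

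A processed pseudogene is a copy of a messenger RNA that was reverse transcribed and inserted elsewhere in the genome. Such copies lack introns, start out without the promoter of the parent gene, and collect mutations over time. Genes that are strongly expressed in the germ line, such as those of ribosomal proteins, glycolytic enzymes and chromatin proteins, have left many of them. A young copy differs from its parent at few bases, so a short read from the shared stretch can be assigned to either one. How far reads of the parent contributed to the level of a copy was not tested.

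The likely parent was taken as the best match among protein-coding transcripts of GENCODE M21, with at least 90% identity over at least 50% of the pseudogene. Of the 256 pseudogenes, 251 had a sequence in that annotation and 245 of these had such a match. In 7 the best match lay outside the coding sequence and 3 or more coding genes passed these limits. The other 238 pseudogenes were each given their best match as the likely parent, which made 197 distinct parents. Among equal matches the gene with the higher level was taken. For some members several coding genes passed the limits, such as 3 for Gm10182 and 4 each for Gm13394 and Gm29668, so the parent is not always unique. A parent is named in 34 of the pseudogene symbols, and in 28 of these it was also the match. The sequences of the members that carry the results are given here from the GENCODE M21 transcripts (GRCm38), 5′ to 3′, with capitals for bases that differ from the compared coding transcript or lie outside the alignment. Gm10182 (chr9:22321105-22321377, minus strand) and Gm16510 (chr2:70618628-70618876, minus strand) are set against Hmgn2, a nucleosome-binding protein, and show an identical and a diverged copy of 1 parent.
Gm10182: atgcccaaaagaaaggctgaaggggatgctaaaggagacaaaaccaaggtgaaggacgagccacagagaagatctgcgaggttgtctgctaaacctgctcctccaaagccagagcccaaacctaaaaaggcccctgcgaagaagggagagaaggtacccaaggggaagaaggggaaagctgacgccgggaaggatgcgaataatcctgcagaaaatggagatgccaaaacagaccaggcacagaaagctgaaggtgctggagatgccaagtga
Gm16510: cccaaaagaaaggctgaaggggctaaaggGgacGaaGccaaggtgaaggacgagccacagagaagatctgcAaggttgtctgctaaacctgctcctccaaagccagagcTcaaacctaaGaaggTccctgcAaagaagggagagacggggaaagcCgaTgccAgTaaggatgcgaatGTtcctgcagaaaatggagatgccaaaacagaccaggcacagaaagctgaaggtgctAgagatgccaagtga
Gm10182 held all 273 bases of the Hmgn2 coding sequence with 0 mismatches, from the start to the stop codon. Gm16510 had 15 mismatches and lacked 21 bases in the alignment printed here. The separate blastn alignment, which was used to assign parents, gave it an identity of 86.3%, below the 90% limit.

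The other sequences belong to members that fell or rose, or whose level split the libraries. Gm15452 (chr1:8791923-8792162, minus strand) is shown as a second identical copy, of Cks2, a small partner of cyclin-dependent kinases. Gm48445 (chr13:12679747-12679939, minus strand) is a fragment of Rrm2, a subunit of ribonucleotide reductase. Gm42855 (chr5:16981036-16981288, plus strand) comes from Lypla1, an acyl-protein thioesterase, and was the member with the largest rise past the threshold. Gm14491 (chrX:11913091-11913289, minus strand) is closest to Gapdh, a glycolytic enzyme, and Gm44389 (chr6:60461933-60462114, minus strand) to Ubb, a polyubiquitin gene.
Gm15452: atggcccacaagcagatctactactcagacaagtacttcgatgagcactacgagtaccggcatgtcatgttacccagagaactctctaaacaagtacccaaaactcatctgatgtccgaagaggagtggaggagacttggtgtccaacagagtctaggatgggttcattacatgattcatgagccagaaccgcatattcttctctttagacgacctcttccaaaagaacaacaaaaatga
Gm48445: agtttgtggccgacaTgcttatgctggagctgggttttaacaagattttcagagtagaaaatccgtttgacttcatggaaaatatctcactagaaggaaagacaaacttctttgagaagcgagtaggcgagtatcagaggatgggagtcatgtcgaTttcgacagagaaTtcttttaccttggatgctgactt
Gm42855: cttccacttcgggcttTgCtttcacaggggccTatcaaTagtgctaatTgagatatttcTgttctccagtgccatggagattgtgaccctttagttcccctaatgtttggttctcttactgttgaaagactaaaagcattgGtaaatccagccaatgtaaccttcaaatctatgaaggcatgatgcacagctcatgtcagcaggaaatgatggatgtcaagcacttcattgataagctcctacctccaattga
Gm14491: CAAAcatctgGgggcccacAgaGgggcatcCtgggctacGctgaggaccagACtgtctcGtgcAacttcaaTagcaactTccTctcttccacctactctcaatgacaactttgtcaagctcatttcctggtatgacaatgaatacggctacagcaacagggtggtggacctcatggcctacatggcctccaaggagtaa
Gm44389: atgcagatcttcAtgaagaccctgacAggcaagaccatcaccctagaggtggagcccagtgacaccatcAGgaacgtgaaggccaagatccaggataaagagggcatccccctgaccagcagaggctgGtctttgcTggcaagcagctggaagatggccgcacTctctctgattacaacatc
Gm15452 matched Cks2 at all 240 bases. Gm48445 differed from Rrm2 at 3 of 193 bases, Gm42855 had 7 mismatches to Lypla1 and Gm44389 had 7 to Ubb, each of these last 2 with 1 missing base. Gm14491 had 12 mismatches to Gapdh and lacked 20 bases.

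The high-level pseudogenes were short. Their median annotated length was 253 bases (range 69 to 2406), against 675 bases for the 1001 other processed pseudogenes with a sequence. They were also close to other transcripts: a median of 82.5% of their 31-base words occurred in another annotated transcript, against 51.8% for the others. In 66 of them (26.3%) every such word was shared, against 72 of the others (7.19%). The median identity to the matched parent was 98.9%, against 96.8%, and 56 were identical to it over the alignment. A reading frame of the parent could be followed without a gap in 193, of which 177 (91.7%) had no internal stop codon, against 244 of 292 (83.6%) among the others. Of the 251, 249 had 1 exon and 2, Gm13461 and Gm6060, had more. They lay on 20 chromosomes, 19 of them on the X chromosome, and 85 lay within the span of another gene, 56 on the opposite strand and 29 on the same strand. TPM divides by length, so length enters the level that chose the members.

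**Figure D1:**
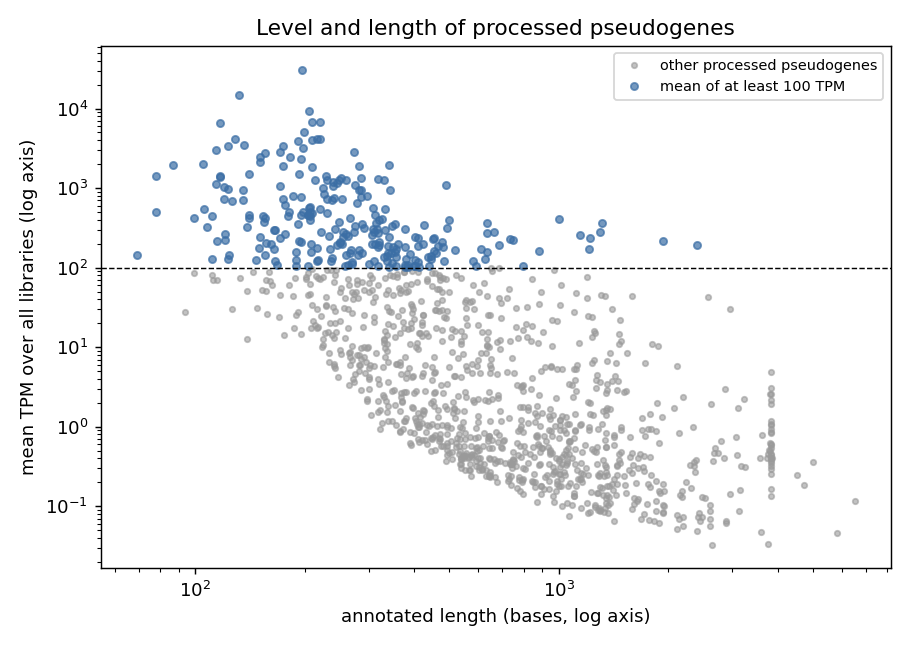
Mean TPM over all 7 libraries (log axis) against annotated length in bases (log axis), with 1 point per processed pseudogene that has a sequence; the dashed line marks 100 TPM, and points below 0.01 TPM are left out. The selected pseudogenes (blue) have a median length of 253 bases and the others (grey) one of 675 bases.

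Together the 256 pseudogenes held 27.4%, 23.9% and 23.5% of the total TPM in the 3 control libraries and 23.1%, 20.96%, 24.0% and 23.3% in the 4 shKmt2f libraries, so control 1 was the highest and the groups overlapped. The 10 highest held 39.3% of that sum, and the median member had a mean of 282.2 TPM. Just above the limit stood Gm8741 with a mean of 100.7 TPM, Trmt112-ps2 with 101.9 TPM and Rpl28-ps1 with 102.2 TPM. Just below it stood Gm7488 with 99.96 TPM, Rpl14-ps1 with 97.8 TPM and Atp5k-ps2 with 95.1 TPM.

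Of the 237 pseudogenes whose parent had a listed coding transcript, 195 had a higher mean TPM than the summed coding transcripts of the parent, and the median ratio of copy to parent was 3.66. In 68 of them the ratio was above 10. The matched coding transcript itself was listed for 209 of the 237, where 176 copies stood above the parent. Against the sum over all transcript types of the parent, 162 of the 237 copies were higher and the median ratio was 1.98. Gm10123, an identical copy of the cyclophilin gene Ppia, had a mean of 1102 TPM over all 7 libraries. Over the same libraries the coding transcripts of Ppia summed to a mean of 3.39 TPM and all its transcript types together to 1120 TPM. In the control alone the coding transcripts summed to 3.85 ± 0.672 TPM (SD, n = 3). These ratios follow in part from the rule, which keeps only copies with a high level.

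All 256 pseudogenes passed the filter for testing, at least 1 TPM in at least 3 libraries. The test was limma on log2(TPM + 1) over 37024 transcripts with Benjamini-Hochberg adjustment and a threshold of 0.05, and every fold change is shKmt2f minus control on that log2 scale. Of the 256, 18 passed (7.03%), 15 lower and 3 higher in shKmt2f, against 2.24% of all transcripts tested, 0.794% lower and 1.44% higher. Among transcripts of other types with a mean of at least 100 TPM, 66 of 1119 passed (5.90%), among coding transcripts of at most 500 bases, 70 of 2322 (3.01%), and among the processed pseudogenes below 100 TPM, 19 of 584 (3.25%). The share of the high-level pseudogenes was thus close to that of other transcripts at this level. At an unadjusted p under 0.05 in limma there were 66 of the 256 (25.8%), against 23.4% of all transcripts tested. The ranges of the groups did not overlap for 61 (23.8%), 41 lower and 20 higher, against 21.6% of all transcripts tested.

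The median fold change of the 256 was -0.14, with 175 below 0, against 0.09 over all transcripts tested and -0.07 over the other transcripts of at least 100 TPM. Its size rested in part on single libraries: the median of the 256 was -0.04 without control 1, where that over all transcripts was 0.03, and -0.07 without shKmt2f 2, and it was -0.22 without control 2. Median-ratio scaling of the tables moved the median over all transcripts to -0.01 and that of the pseudogenes to -0.26, and changed the share of higher calls over all transcripts from 64.5% to 52.9%. It left 2 pseudogenes higher and 14 lower, against 3.08% of all transcripts called. A correction for GC content left 1 higher and 9 lower, against 1.9% of all transcripts called, with a share of higher calls over all transcripts of 42.7%. It needs a sequence, so the 5 members without one, among them Nutf2-ps2 of the 18, were not tested in that fit. The calls rested on few libraries: without control 2, 37 pseudogenes passed, 16 higher and 21 lower, against 12.1% of all transcripts, and without any one of the other 6 libraries between 2 and 4 passed, against 0.173% to 0.468%. Gm10182 and Gm16510 passed in all 7 of these fits, Gm48445 in 4, Gm14491, Gm47803 and Rpl36-ps10 in 2, and the other 12 only without control 2. In the authors' deposited table, 20 of the 256 (7.81%) had a q-value under 0.05, against 5.52% of all 55404 transcripts, and 16 of these 20 were among the 18. Of the other 2 of the 18, Gm11367 had a q-value of 0.0597 and Rpl36-ps10 one of 0.272 in the authors' deposited table.

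**Figure D2:**
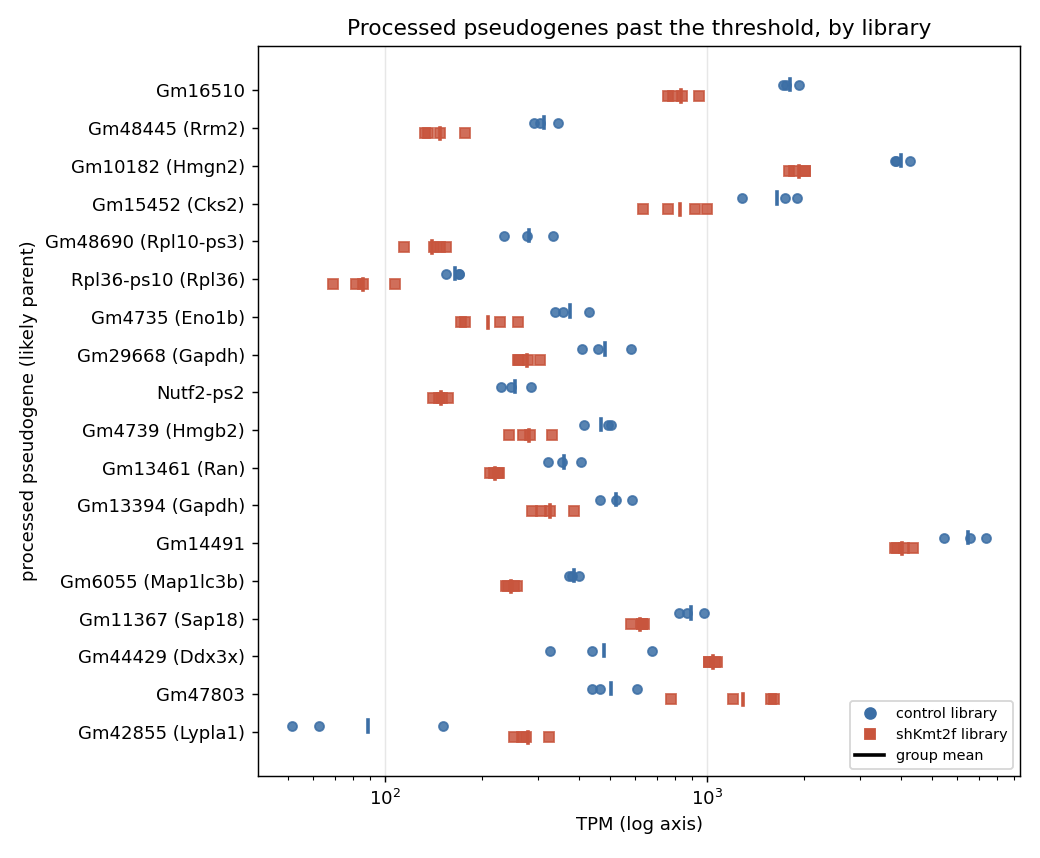
TPM (log axis) of the 18 processed pseudogenes past the threshold of limma, with control libraries as circles, shKmt2f libraries as squares and group means as vertical lines; the likely parent stands in parentheses. In 15 rows the 4 shKmt2f libraries lie below the 3 control libraries and in 3 rows above them.

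Copies of HMG genes, which encode small proteins that bind nucleosomes or bend DNA, included 8 members, of which 2 fell and none rose. Over all transcripts tested, 0.794% passed as lower and 1.44% as higher. Gm10182 stood at 4293, 3849 and 3882 TPM in the control and at 1871, 2017, 1808 and 2026 TPM in shKmt2f. Every shKmt2f library was near 48.2% of the control mean, and the groups were far apart. The fold change was -1.05 (SE 0.08, limma adjusted p = 0.00568). The coding transcripts of Hmgn2 stood at 1381, 1243 and 1256 TPM and at 618, 665, 604 and 661 TPM, a fold change of -1.02 (SE 0.08, limma adjusted p = 0.00148). The difference between copy and parent was -0.03 (SE 0.06, limma adjusted p = 0.874).

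The diverged relative Gm16510 is below the identity limit and is not counted among the 8 copies of HMG genes. It stood at 1932, 1732 and 1766 TPM in the control and at 785, 943, 759 and 836 TPM in shKmt2f. It fell by 1.13 (SE 0.10, limma adjusted p = 0.00791), the largest fall past the threshold among the 256. Of its 31-base words, 30.6% occurred in another transcript. Gm4739, a copy of the whole coding sequence of Hmgb2, which is abundant in dividing cells, stood at 506, 493 and 415 TPM in the control and at 244, 268, 283 and 331 TPM in shKmt2f, without overlap. The fold change of Gm4739 was -0.74 (SE 0.13, limma adjusted p = 0.0391), and that of Hmgb2 was -0.66 (SE 0.15, limma adjusted p = 0.0231).

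The 5 copies of Hmgb1 had fold changes close to 0, between -0.10 for Gm14448 and 0.09 for Gm45315, as did Hmgb1 itself at -0.05 (limma adjusted p = 0.769). The highest of them, Gm13577, stood at 8867, 10959 and 8585 TPM in the control and at 9041, 9052, 9499 and 9697 TPM in shKmt2f, and its groups overlapped. After the GC correction the fold change of Gm13577 was -0.42 and did not pass (limma adjusted p = 0.0766). The other 4 copies of Hmgb1 then had fold changes of -0.33 for Gm14448, -0.17 for Gm3851, -0.16 for Gm45315 and -0.46 for Gm21596, and none passed. The copy of Hmgn1, Gm7862, had a fold change of 0.15 (limma adjusted p = 0.573).

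Copies of cell cycle and replication genes numbered 6, of which 3 fell and none rose, against 0.794% lower and 1.44% higher over all transcripts tested. The median fold change of the 6 was -0.67. Gm15452 stood at 1914, 1288 and 1746 TPM in the control and at 632, 757, 917 and 1004 TPM in shKmt2f, a fold change of -1.0 (SE 0.19, limma adjusted p = 0.0464). Its parent Cks2 went from 149, 114 and 141 TPM to 52.3, 64.3, 72.5 and 88.3 TPM, a fold change of -0.96 (SE 0.17, limma adjusted p = 0.0144). The spread among the shKmt2f libraries was wide in both, but no library crossed into the other group.

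Gm48445, the Rrm2 fragment, stood at 303, 344 and 292 TPM and at 136, 178, 133 and 148 TPM, a fold change of -1.07 (SE 0.13, limma adjusted p = 0.0135). Rrm2, whose product makes deoxyribonucleotides for DNA replication, stood at 33.6, 40.6 and 38.5 TPM and at 14.5, 19.0, 14.4 and 21.6 TPM, a fold change of -1.09 (SE 0.16, limma adjusted p = 0.0098). Gm13461, a copy of the nuclear transport GTPase Ran with more than 1 exon, stood at 407, 322 and 356 TPM and at 213, 226, 218 and 224 TPM. It fell by 0.71 (SE 0.10, limma adjusted p = 0.0243), and the coding transcripts of Ran fell by 0.49 (SE 0.09, limma adjusted p = 0.0165). Those coding transcripts had a mean of 120.1 TPM over all 7 libraries, while all transcript types of Ran together had 1417 TPM. The 3 members that did not pass, copies of Tk1, Cks1b and Cdk2ap1, had fold changes of -0.45, -0.30 and -0.63.

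Copies of glycolytic enzymes numbered 5, of which 3 fell and none rose, against 0.794% lower and 1.44% higher over all transcripts tested. Their median fold change of -0.68 was the lowest of the groups of parents. Among the falling copies, Gm13394 and Gm29668 had the same parent, Gapdh. Gm14491 is closest to Gapdh but below the identity limit, and is not counted among the 5. It stood at 6591, 7362 and 5448 TPM in the control and at 4385, 3903, 4091 and 3840 TPM in shKmt2f, a fold change of -0.66 (SE 0.11, limma adjusted p = 0.0385). Gm13394, which covers the whole coding sequence of Gapdh, stood at 521, 584 and 467 TPM and at 387, 306, 327 and 287 TPM, a fold change of -0.68 (SE 0.13, limma adjusted p = 0.0442). In none of these did the groups overlap.

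The shorter Gapdh copy Gm29668 stood at 584, 458 and 409 TPM and at 304, 261, 279 and 259 TPM, a fold change of -0.79 (SE 0.13, limma adjusted p = 0.0372). The listed coding transcripts of Gapdh had a fold change of -0.34 (SE 0.14, limma adjusted p = 0.132), but the coding transcript that both copies matched best was not among those used here. Gm4735, matched to the enolase gene Eno1b, stood at 337, 432 and 359 TPM and at 228, 260, 178 and 172 TPM. It fell by 0.85 (SE 0.17, limma adjusted p = 0.0477), and the listed coding transcripts of Eno1b fell by 0.75 (SE 0.14, limma adjusted p = 0.0151). Gm4735 matched 2 coding genes, and the Eno1b transcript that it matched best was not among those used here. Gm13685, matched to Eno1, had a fold change of -0.61 (SE 0.19, limma adjusted p = 0.106). Its q-value in the authors' deposited table was 0.00568. After the GC correction none of the 5 passed, nor did Gm14491. The limma adjusted p was then 0.0886 for Gm13394, 0.0636 for both Gm29668 and Gm14491, and 0.0561 for Gm4735, with fold changes of -0.64, -0.81, -0.71 and -0.81.

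Ribosomal protein genes gave the most copies. Of 39 copies of large-subunit genes 2 fell and none rose, with a median fold change of -0.23. Of 24 copies of small-subunit genes none passed, with a median of -0.17. The shares over all transcripts tested were 0.794% lower and 1.44% higher. Among the small-subunit copies 2 had an unadjusted p under 0.05 in limma, none had a q-value under 0.05 in the authors' deposited table, and the smallest adjusted p was 0.0985, that of the Rps19 copy Gm45660, with a fold change of 0.45. Gm48690 matched Rpl10-ps3, which GENCODE M21 annotates as protein-coding, and stood at 333, 235 and 276 TPM in the control and at 149, 115, 156 and 143 TPM in shKmt2f. Its fold change was -0.99 (SE 0.15, limma adjusted p = 0.0307) and that of Rpl10-ps3 was -0.96 (SE 0.11, limma adjusted p = 0.00554).

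Rpl36-ps10 stood at 170, 171 and 155 TPM in the control and at 69.2, 81.7, 107 and 85.5 TPM in shKmt2f, a fold change of -0.95 (SE 0.15, limma adjusted p = 0.0311). Its parent Rpl36 had one of -0.37 (SE 0.20, limma adjusted p = 0.228), and the difference between copy and parent, -0.58 (SE 0.24), did not pass (limma adjusted p = 0.442). The other copies of Rpl36, Rpl36-ps2 and Gm13611, had fold changes of -0.20 and -0.51 with adjusted p of 0.603 and 0.505 in limma. The shKmt2f 2 library was the lowest of its group for Rpl36 and for both of those copies, but not for Rpl36-ps10, whose lowest library was shKmt2f 1.

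The remaining members that fell had parents outside these groups. Gm6055, a copy of the autophagy gene Map1lc3b, stood at 383, 374 and 403 TPM and at 251, 239, 258 and 241 TPM, a narrow spread in both groups. Its fold change was -0.64 (SE 0.08, limma adjusted p = 0.0176) and that of Map1lc3b was -0.76 (SE 0.09, limma adjusted p = 0.00554). Nutf2-ps2 stood at 285, 229 and 247 TPM and at 151, 147, 142 and 157 TPM, a fold change of -0.76 (SE 0.10, limma adjusted p = 0.0213). Nutf2, the nuclear transport factor in its name, went the other way without passing, at 0.27 (SE 0.15, limma adjusted p = 0.25), with coding transcripts of 12.01 ± 1.76 TPM (SD, n = 3) and 14.6 ± 1.71 TPM (SD, n = 4). That difference between copy and parent was not tested, since no sequence joined them. Gm11367, from Sap18, stood at 983, 871 and 821 TPM and at 641, 582, 632 and 630 TPM, a fold change of -0.52 (SE 0.09, limma adjusted p = 0.0404), with Sap18 at -0.28 (SE 0.14, limma adjusted p = 0.207). Gm11367 did not pass after scaling (limma adjusted p = 0.0628) or after the GC correction (limma adjusted p = 0.0841).

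The 3 members that rose had no parent group in common. Gm42855 stood at 51.7, 152 and 62.5 TPM in the control and at 324, 267, 274 and 252 TPM in shKmt2f, a fold change of 1.80 (SE 0.33, limma adjusted p = 0.043). Its parent Lypla1 stood at 30.6, 71.1 and 27.2 TPM and at 163, 162, 127 and 140 TPM, a fold change of 1.89 (SE 0.29, limma adjusted p = 0.00986). In both, control 2 was more than 2 times the other control libraries. Gm44429, which matches Ddx3x, an RNA helicase gene, outside its coding sequence, stood at 327, 675 and 439 TPM and at 1065, 1015, 1020 and 1075 TPM. Its fold change was 1.18 (SE 0.21, limma adjusted p = 0.0419), that of Ddx3x was 1.11 (SE 0.20, limma adjusted p = 0.0142), and control 2 was again the highest control library. After the GC correction the fold change of Gm44429 was 0.64 and did not pass (limma adjusted p = 0.0537).

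Gm47803 was given no single parent. It matched 18 coding genes, and its best match lay outside the coding sequence. It stood at 440, 607 and 467 TPM in the control and at 1209, 772, 1618 and 1581 TPM in shKmt2f, a fold change of 1.31 (SE 0.26, limma adjusted p = 0.0477). Gm47803 did not pass after scaling (limma adjusted p = 0.0651) or after the GC correction (limma adjusted p = 0.0706). All 31-base words of Gm47803 also occurred in other transcripts.

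In the other groups of parents no member passed in limma. They were 24 copies of respiratory chain and other mitochondrial genes (median fold change -0.22), 13 of ubiquitin and proteasome genes (0.05), 12 of hnRNP and splicing genes (-0.29), 8 of translation factors (0.07), 5 each of cytoskeletal genes (-0.07) and of cyclophilins and chaperones (-0.08), and 4 of histone and histone chaperone genes (0.36). At an unadjusted p under 0.05 in limma, which 23.4% of all transcripts tested had, there were 7 of the mitochondrial, 2 of the ubiquitin, 5 of the splicing, 1 of the translation, 1 of the cytoskeletal, 3 of the chaperone and 2 of the histone group, and 1 splicing member, Gm48583, had a q-value under 0.05 in the authors' deposited table. The smallest adjusted p among them was 0.0559, that of Gm9800, a copy of prothymosin alpha, Ptma, which stood at 62.5, 123 and 85.5 TPM and at 203, 144, 188 and 182 TPM. Its fold change was 1.02 (SE 0.22), beside 0.16 (SE 0.09) for Ptma, and the difference of 0.86 (SE 0.22) did not pass (limma adjusted p = 0.205). Gm9762, an identical copy of the ubiquitin-conjugating enzyme gene Ube2d2a, had a fold change of 0.40 (limma adjusted p = 0.057), and Ube2d2a itself rose by 0.54 (limma adjusted p = 0.0207). After the GC correction the fold change of Gm9762 was -0.00. The other members with the smallest adjusted p in their groups were Eif3s6-ps2 (0.68, limma adjusted p = 0.0647), the Rbm3 copy Gm48583 (-0.32, 0.0694), the Ppia copy Gm10123 (-0.60, 0.0766), Uqcrh-ps1 (-0.49, 0.079) and the Actr3 copy Gm15899 (0.37, 0.131). For Gm15899 the sign turned after the GC correction, to -0.20.

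**Figure D3:**
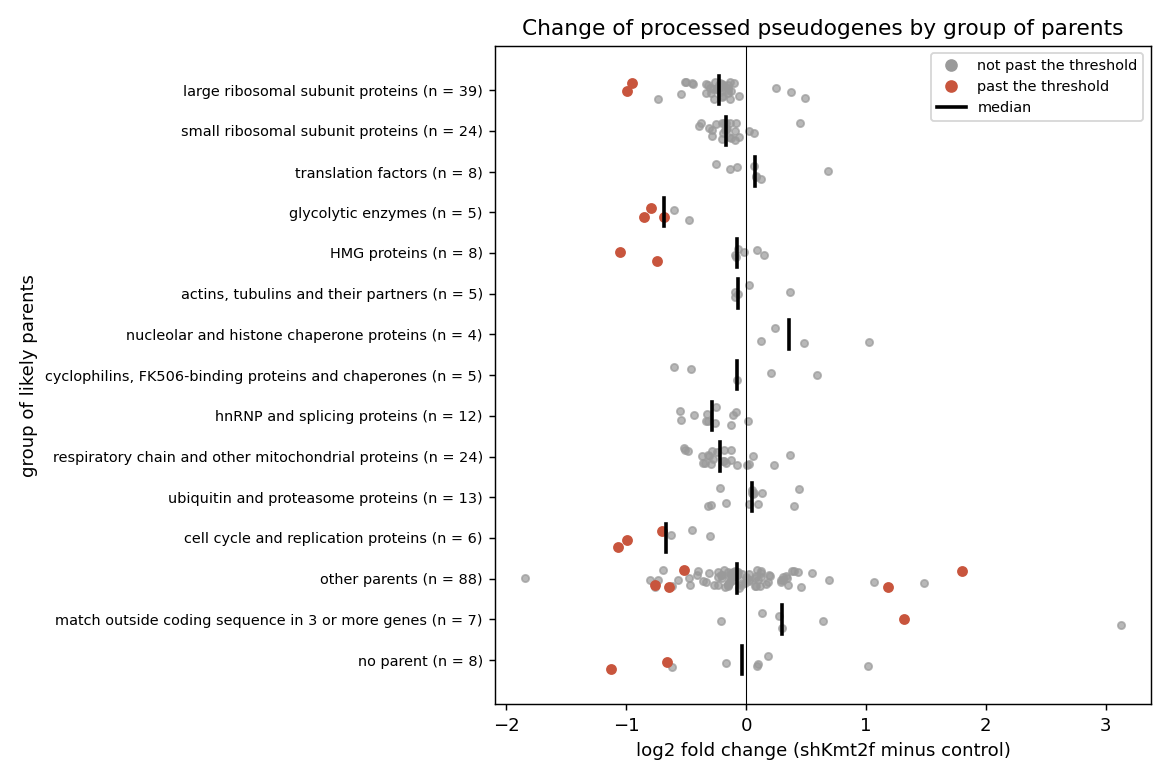
Log2 fold change (shKmt2f minus control) of the 256 processed pseudogenes by group of likely parents, 1 point per pseudogene, with red for those past the threshold of limma and a black bar for the median. The copies of glycolytic and of cell cycle genes have medians of -0.68 and -0.67, and most other groups have a median within 0.3 of 0.

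Of the 197 distinct parents, 194 were tested as sums of their coding transcripts, and 28 passed in limma (14.4%), 13 lower and 15 higher, against 17.5% of all 10857 coding genes tested, 4.09% lower and 13.4% higher. Their median fold change was -0.11, against 0.11 over all coding genes. The 18 pseudogenes that passed included 14 with a tested parent, and for 10 of these the parent passed as well. When each parent was summed with all its pseudogenes, 24 of 196 passed, 17 lower and 7 higher, against 16.9% of all such sums, and 20 parents passed both with and without their copies.

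Whether a copy and its parent changed by different amounts was tested directly on the difference of their log2 values. None of the 235 members tested passed in limma, against 0.653% of all 766 pairs of pseudogene and parent. A single one matched 3 or more genes with its best match outside the coding sequence. Without it 234 remained, of which 18 had an unadjusted p under 0.05 in limma, and the smallest adjusted p was 0.178. The differences ranged from -1.28 to 1.10 with a median of -0.04. In 188 pairs (80.3%) the difference lay within 0.25 of 0, and in 221 (94.4%) within 0.5. The median size of the difference was 0.11 in the 61 pairs whose copy shared all its 31-base words, 0.09 in the 122 that shared 50% or more, and 0.11 in the 51 that shared less than 50%. The share within 0.25 of 0 was 83.6%, 82.8% and 70.6% in these 3 classes.

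**Figure D4:**
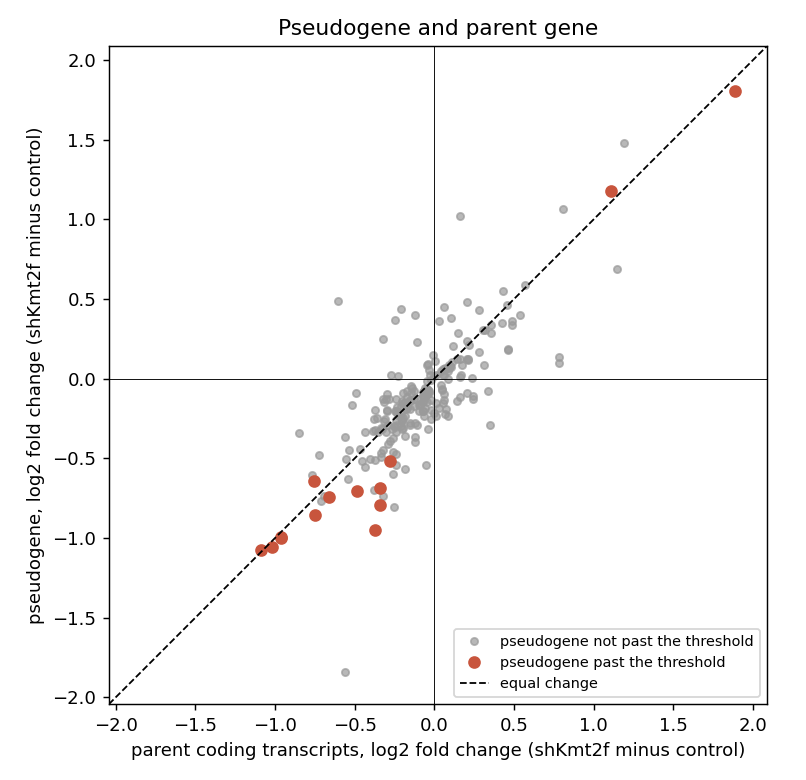
Log2 fold change of the pseudogene (vertical axis) against that of the coding transcripts of its parent (horizontal axis), both shKmt2f minus control, for 234 pairs; red points are pseudogenes past the threshold of limma and the dashed line marks equal change. In 221 pairs the 2 values differ by at most 0.5.

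The ratio of copy to parent was steady across libraries in many pairs. For Gm12328 and Ubb it lay between 32.8 and 33.3 in all 7 libraries, although Gm12328 itself ranged over 1.58 times. For Gm10182 and Hmgn2 it lay between 2.99 and 3.11, while Gm10182 ranged over 2.37 times. Over the 237 pairs the highest ratio was a median of 1.33 times the lowest, and in 155 (65.4%) at most 1.5 times. The pseudogenes of the same pairs ranged over a median of 1.69 times in TPM, and 79 ranged over at most 1.5 times. In 30 pairs the ratio itself ranged over more than 2 times.

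Of the 3 Ubb copies, Gm12328 and Gm37421 were among the 6 highest members, as was the related Gm8648. The third, Gm44389, had a mean of 2437 TPM that rested on 3 libraries. Ubb encodes several ubiquitin units in a row, which are cleaved into single ubiquitin molecules. Gm12328 stood at 39671, 33097 and 27894 TPM in the control and at 25106, 25064, 32563 and 32083 TPM in shKmt2f, and Gm37421 at 17098, 14598 and 15215 TPM and at 13681, 13819, 14308 and 13713 TPM. Neither passed, with fold changes of -0.22 (SE 0.15, limma adjusted p = 0.419) and -0.17 (SE 0.08, limma adjusted p = 0.24). Gm8648, which matches the coding gene Gm8797 and is identical to Ubb at 90.05% of its bases, stood at 6721, 5853 and 8217 TPM and at 7735, 7462, 5615 and 5374 TPM.

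Gm44389 split the libraries in another way than the groups. It stood at 282 and 340 TPM in control 1 and control 2 but at 5701 TPM in control 3, and at 5145 and 5109 TPM in shKmt2f 1 and shKmt2f 2 but at 221 and 261 TPM in shKmt2f 3 and shKmt2f 4. The same 3 libraries in which Gm44389 was high had the 3 lowest values of Gm12328 and of the Ubb coding transcripts and the 3 highest of Gm8648. The sum of Ubb and its 3 copies lay between 47033 and 58244 TPM in the 4 libraries with low Gm44389 and between 44696 and 49656 TPM in the other 3. The fold change of Gm44389 between the groups was 0.44 with an SE of 1.5 (limma adjusted p = 0.897), so its difference between the groups was far within the spread of the libraries. Gm44389 was described after its values were seen.

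**Figure D5:**
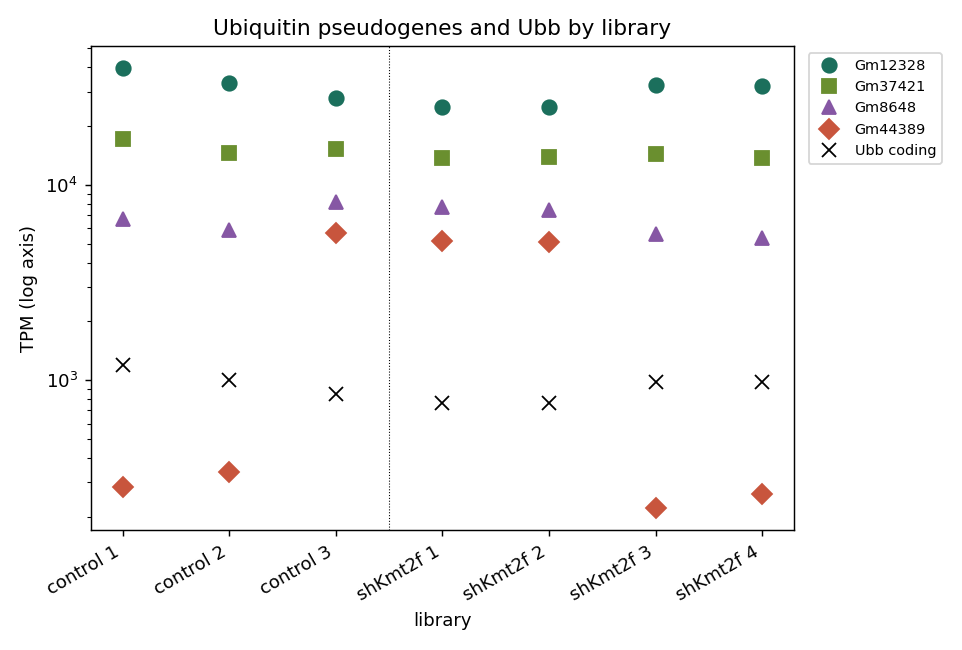
TPM (log axis) of 4 ubiquitin pseudogenes and of the coding transcripts of Ubb in the 3 control and 4 shKmt2f libraries, 1 point per library. Gm44389 lies at 5109 to 5701 TPM in control 3, shKmt2f 1 and shKmt2f 2 and at 221 to 340 TPM in the other 4 libraries.

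Other members of the highest level stayed within the spread of the libraries or missed the threshold. Gm20545, a copy of the histone variant gene H3f3a, stood at 6461, 6163 and 5669 TPM and at 7271, 6817, 7817 and 6862 TPM, without overlap, at a fold change of 0.24 (SE 0.09, limma adjusted p = 0.147), with H3f3a at 0.21 (limma adjusted p = 0.0956). Gm14287, identical to the 14-3-3 protein gene Ywhaz over 92.3% of its length, stood at 5235, 6236 and 6214 TPM and at 7185, 7720, 6717 and 7140 TPM. Its fold change was 0.29 (SE 0.09, limma adjusted p = 0.115), while Ywhaz passed at 0.36 (SE 0.10, limma adjusted p = 0.0359). For Gm14287 the sign turned after the GC correction, to -0.10.

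Across all 256, the highest library was a median of 1.70 times the lowest. In 86 members it was more than 2 times and in 10 more than 4 times the lowest, counting the 2 that were listed at 0 in a library. These widest ranges were looked up after the values were seen. The 2 copies of Cop1, a ubiquitin ligase gene, were low in the same shKmt2f libraries: Gm47965 stood at 136, 254 and 288 TPM in the control and at 0, 91.1, 422 and 337 TPM in shKmt2f, and Gm16199 at 107, 162 and 171 TPM and at 32.6, 69.2, 263 and 256 TPM. The coding transcripts of Cop1 had the same order in shKmt2f, at 10.1, 28.7, 119 and 114 TPM. Gm7332, a copy of Ppp1r14b, also had its 2 lowest values in shKmt2f 1 and shKmt2f 2, at 82.7 and 137 TPM, against 285 and 258 TPM in shKmt2f 3 and shKmt2f 4 and 253 to 311 TPM in the control. Gm12112, a copy of the transcription elongation factor gene Tcea1, stood at 181, 522 and 129 TPM in the control and at 639, 720, 646 and 582 TPM in shKmt2f. It did not pass (fold change 1.48, SE 0.41, limma adjusted p = 0.0842), while Tcea1 rose by 1.19 (limma adjusted p = 0.0285), and control 2 was again the highest control library in both.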

How the data were processed

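Transcript levels were measured by RNA-seq in 3 control and 4 shKmt2f libraries, prepared with SMART-Seq v4 from 1 ng of RNA and then tagmented, per the labels' protocols. The authors deposited 1 table per library in TPM, per the file headers, made with Salmon 0.11.3 and sleuth 0.30.0 on GRCm38.p6 per the submitters' processing notes. The deposited tables also hold the authors' p-value and q-value per transcript, and their effect as a natural log. Of 55475 rows, 71 held no TPM. Since TPM keeps no depth, the depth is unknown and counting intervals cannot be given.

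Groups were taken from the sample titles, which do not say whether libraries came from separate animals, so p-values measure the spread between libraries. limma 3.58.1 (R 4.3.3) was fitted to log2(TPM + 1) with trend and robust prior over transcripts that reached 1 TPM in 3 or more libraries, over sums of coding transcripts per gene, and over differences of copy and parent. It was tested on simulated data. Parents came from blastn 2.17.0 against GENCODE M21 on the same strand. The 31-base words were compared with all its other transcripts on either strand. The annotation release the authors used is not given in the sources used here. Median-ratio scaling, a pseudocount of 0.1, no filter, no trend, a replicate block, a loess GC correction (span 0.3), other limits of level and identity and leaving out each library were alternatives.

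Members named are the 6 highest, the 8 largest changes past the threshold in each direction, the 3 on each side of the limit and up to 3 per group of parents. The rest of the 18 and the widest ranges were added after their values were seen. The members, groups of parents and tests were chosen with earlier results of these data known.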

Additional observations from a re-analysis of the deposited data

Results flagged for a closer look

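Of 75 sets of 4 shKmt2f values checked for members named above, members of the widest range and their parents, 3 held a library far from the other 3 by Dixon's test at the 95% level, which chance gives in about 1 of 20 sets. The pseudogene Gm13611 was at 42.8 TPM in shKmt2f 2 and between 99.5 and 107 TPM in the others. Its parent Rpl36 was at 70.9 TPM in the same library and between 123 and 128 TPM in the others. The coding transcripts of Ran were at 98.1 TPM in shKmt2f 1 and between 103 and 104 TPM in the others, a narrow range.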

How the results depend on the processing

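Across all transcripts, 828 passed with the settings of the report, 365 with a pseudocount of 0.1, 302 without a filter, 359 without trend and robust prior, and 63 to 4393 when each library was left out in turn, the highest without control 2. Of the high-level pseudogenes, 18 passed, and 8 without a filter, 3 without trend and robust prior and 2 to 37 with 1 library left out. After the GC correction 10 passed, in a fit that held only the 251 with a sequence. Scaling (16), a pseudocount of 0.1 (12) and the limit on the group means (18) stayed within 1.5 times. So did limits of 50 TPM (24 of 339) and 200 TPM (15 of 166). Leaving out the 7 that matched 3 or more genes with the best match outside the coding sequence (17) also did. That last setting was chosen after seeing the data. With the replicate number as a block, limma passed 1 transcript and 0 pseudogenes. Of the pseudogenes, 76 (29.7%) then had an unadjusted p under 0.05, against 19.3% of all transcripts. The shKmt2f library whose number no control library shares adds nothing to the group comparison in any fit with this block. The median fold change of the high-level pseudogenes was -0.155 with the block and also without that library. These fits therefore do not test all libraries. Same-numbered libraries correlated at 0.0195 to 0.0328 in their deviations, and differently numbered ones at -0.0884 to 0.0619. With 3 and 4 libraries per group, these values do not decide whether the numbers pair the libraries. Control 1 correlated best with shKmt2f 3. Of the parents, 28 passed, and 8 to 38 with 1 library left out. Among all pairs of pseudogene and parent, 5 differed, and 2 with a pseudocount of 0.1, 18 without a filter, 1 with the replicate block, 3 at an identity of 95%, and 1 to 3 with 1 library left out; tested instead as sums of a parent with its pseudogenes, 24 of the members' parents passed. None of the named pseudogenes past the threshold turned its direction under these settings. The causes of these differences were not tested. TPM holds no depth, so what depth limits cannot be stated.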
